A study of Homo sapiens with 2 samples.

Results

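The IGF axis genes described here are 10 genes of insulin-like growth factor (IGF) signaling, chosen by name: the ligands IGF1 and IGF2, the receptors IGF1R, IGF2R and INSR, the adaptor IRS1, the binding protein IGFBP2, and the RNA-binding proteins IGF2BP1, IGF2BP2 and IGF2BP3. All 10 were among the 33538 genes counted in the single cell transcriptomes of CHLA9 and TC71, established Ewing sarcoma cell lines that carry the EWSR1-FLI1 fusion. The study placed Ewing sarcoma within a developmental context and used single cells to look for subpopulations across cell lines and xenografts. Each line was 1 droplet library of untreated, cultured cells that had been detached with trypsin. CHLA9 grew in IMDM with 20% FBS and 1% ITS, a supplement of insulin, transferrin and selenite. TC71 grew in RPMI-1640 with 10% FBS, and its growth description names no ITS. Per the methods, CHLA9 was also sequenced on the NovaSeq, and line, medium, serum, added insulin and sequencing cannot be told apart. With 1 library each there are no replicates, so nothing between the lines was tested and no p-value is given. Cells were kept at 5000 unique molecular identifiers (UMIs) or more, 2000 genes or more, and 15% mitochondrial UMIs or less, which left 4524 cells of CHLA9 and 1729 of TC71.

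IGF1 and IGF2 bind IGF1R, a receptor tyrosine kinase that recruits IRS1 and signals through PI3K, AKT and mTOR, while INSR is its close relative for insulin. IGF2R has no kinase and carries IGF2 to lysosomes, and the IGFBPs hold IGFs in the extracellular fluid. The IGF2BPs are RNA-binding proteins named for their binding to IGF2 mRNA, active in the embryo and in many tumors. IGF1R signaling is known to be needed for transformation by EWSR1-FLI1 and has been a drug target in Ewing sarcoma.

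Levels are UMIs summed over the kept cells per 1000000 UMIs (CPM), with an exact 95% Poisson interval that covers counting error only. A 3' UMI counts 1 molecule whatever the transcript length, so levels of different genes can be set side by side on this scale, although capture may differ between genes. Summed over those cells, UMIs came to 174975302 for CHLA9 and 58355173 for TC71, with medians of 34656 and 33370 UMIs per cell. In TC71, 5869 of 8468 barcodes had under 5000 UMIs, against 277 of 5077 in CHLA9. Both lines held the Ewing sarcoma markers CD99, at 1141 and 402 CPM, and CCND1, at 2511 and 1451 CPM (CHLA9 first, here and in later pairs), and NKX2-2 was at 9.89 and 34.6 CPM. Of the other Ewing sarcoma markers, STEAP1 was at 73.2 and 239 CPM, NR0B1 at 48.1 and 122 CPM and FLI1 at 38.2 and 23.0 CPM. Markers of leukocytes (PTPRC, 9 and 5 UMIs) and endothelium (PECAM1, 2 and 0 UMIs) were near 0, and EPCAM, an epithelial marker, had 8 and 73 UMIs. The stromal markers COL1A1 (56.0 and 10.2 CPM) and PDGFRB (23.2 and 3.62 CPM) were not, and they were higher in CHLA9, as were 3 of the IGF axis genes below. At least 1 UMI of COL1A1 was in 69.4% of kept CHLA9 cells and 24.6% of kept TC71 cells, and of PDGFRB in 49.6% and 10.2%. The part of cells with these stromal markers in the differences of the IGF axis genes was not tested.

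IGF2BP1, IGF2BP2, LIN28B and HMGA2 differed between the lines by over 2-fold as described below, while IGF2BP3 did not, and all 5 hold matches to the seed of let-7. LIN28B blocks the maturation of the let-7 miRNAs, and let-7 represses HMGA2, LIN28B and the IGF2BPs. The mature human let-7a, as RefSeq gives it for MIRLET7A1 (GRCh38.p14, chr9:94175962-94175983, plus strand), follows with its seed, bases 2 to 8, in capitals, and below it stand matches to that seed in 3' UTRs of MANE Select transcripts (GENCODE 44, GRCh38), where the capitals mark CTACCTC, the complement of the seed.
hsa-let-7a-5p: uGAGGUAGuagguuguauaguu
IGF2BP1 site 1, chr17:49051061-49051083, plus strand: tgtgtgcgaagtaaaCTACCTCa
IGF2BP1 site 2, chr17:49053698-49053720, plus strand: cagcagtgctagtaaCTACCTCa
IGF2BP1 site 3, chr17:49054352-49054374, plus strand: gtataaatggattaaCTACCTCa
IGF2BP1 site 4, chr17:49054997-49055019, plus strand: tcacttttgttttatCTACCTCt
IGF2BP2, chr3:185644220-185644242, minus strand: aacacacagaagaagCTACCTCa
IGF2BP3, chr7:23311795-23311817, minus strand: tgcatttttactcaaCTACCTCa
LIN28B site 1, chr6:105078812-105078834, plus strand: acccggttgcaaagtCTACCTCa
HMGA2 site 1, chr12:65963298-65963320, plus strand: gccaacgttcgatttCTACCTCa

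Searched on the sense strand only, CTACCTC stood 4 times in the 6701-base 3' UTR of IGF2BP1, and 1 time each in those of IGF2BP2 (2401 bases) and IGF2BP3 (2153 bases). LIN28B and HMGA2 held 4 matches each. IGF1R held 2 matches, and IGF1, IGF2R and INSR 1 each. None stood in the 3' UTRs of IGF2, IRS1 or IGFBP2. Of 18701 MANE Select 3' UTRs, 1841 (9.84%) held the motif, and long UTRs such as those of these genes hold any such motif more often. The search was added after the levels were seen. A match is a description of sequence, and let-7 itself was not measured in these libraries.

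IGF2BP1 and IGFBP2 were the highest of the 10 genes in both lines, and IGF2 UMIs were close to absent in both. Of the genes with a value in both lines, IGF2BP2 and IGF2BP1 differed most and IGF2BP3 least. A gene counted as higher in a line when its CPM was at least 2-fold that of the other and reached 5 CPM in one. By that rule INSR, IGFBP2 and IGF2BP1 were higher in CHLA9, 3 of the 9 members that reached 5 CPM (33.3%). Of all 10774 genes that reached it, 17.5% were. IGF2BP2, 1 of the 9 (11.1%), was higher in TC71, as were 10.5% of those genes. A further 5 were under 2-fold apart, and IGF2 did not reach 5 CPM. The median log2 difference, CHLA9 minus TC71, was 0.30 for the 9 genes with a value in both lines and 0.21 over all genes. In such a signed median, differences in opposite directions, as of IGF2BP1 and IGF2BP2, offset each other.

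**Figure D1:**
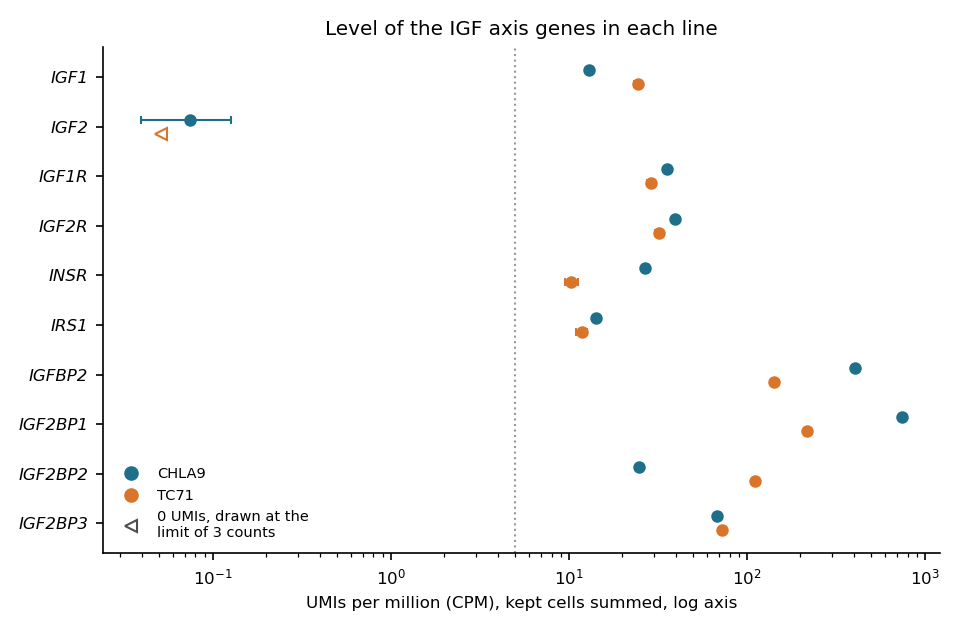
Level of each of the 10 genes in CPM (log axis) in the kept cells of CHLA9 and TC71, with exact 95% Poisson intervals as bars and a dotted line at 5 CPM; the open triangle marks 0 UMIs, drawn at the limit of 3 counts. IGF2 lies far below the other 9 genes in both lines, and IGF2BP1 and IGFBP2 are the highest in both.

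Among the ligands, IGF1 (ENSG00000017427, GRCh38 chr12:102395874-102481744, minus strand) was the one that reached 5 CPM. IGF1 was at 13.0 CPM in CHLA9 (interval 12.4 to 13.5) and at 24.6 CPM in TC71 (23.3 to 25.9). Its log2 difference, CHLA9 minus TC71, was -0.93 (-1.02 to -0.83), a 1.90-fold higher level in TC71 that fell just short of 2-fold. With only G2M cells, the log2 difference was -1.18 and IGF1 passed 2-fold.

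IGF2 (ENSG00000167244, chr11:2129112-2158391, minus strand), the fetal growth factor whose mRNA gives the IGF2BPs their name, had 13 UMIs in CHLA9, each in a different cell, or 0.0743 CPM (0.0396 to 0.127). In TC71 it had 0 UMIs, and the limit taken for a count of 0, 3 counts of the library, is 0.0514 CPM. Another row with the symbol IGF2 (ENSG00000284779) and the readthrough gene INS-IGF2 had 0 UMIs in both lines. In GENCODE 44, exons of these 2 genes cover 38.4% of the IGF2 transcript but 0% of its last 500 bases, where a 3' method reads. The release of the annotation used for the counts is not given, and exon sharing may differ there. Its part in the low IGF2 count was not tested. INS, which encodes insulin, had 0 UMIs in both lines, and H19, the imprinted neighbor of IGF2, was not among the genes counted.

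The receptors were present in both lines at modest levels. IGF1R (ENSG00000140443, chr15:98648539-98964530, plus strand) was at 35.5 CPM in CHLA9 (34.7 to 36.4) against 29.0 CPM in TC71 (27.6 to 30.4). IGF2R (ENSG00000197081, chr6:159969082-160113507, plus strand) was at 39.7 CPM (38.8 to 40.6) and 32.0 CPM (30.6 to 33.5). The log2 differences of 0.30 and 0.31 lay near the 0.21 of the median gene. INSR (ENSG00000171105, chr19:7112255-7294414, minus strand) differed more, at 27.0 CPM in CHLA9 (26.2 to 27.7) against 10.4 CPM in TC71 (9.54 to 11.2). Its log2 difference was 1.38 (1.26 to 1.51), or 2.61-fold.

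The adaptor IRS1 (ENSG00000169047, chr2:226731312-226799820, minus strand) was low in both, at 14.2 CPM (13.6 to 14.7) in CHLA9 and 11.8 CPM (10.9 to 12.7) in TC71. IRS2, the other main adaptor of IGF1R and INSR, was higher than IRS1 in both lines, at 97.1 CPM (95.6 to 98.6) and 67.7 CPM (65.6 to 69.9).

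IGFBP2 (ENSG00000115457, chr2:216632828-216664436, plus strand), a secreted IGF carrier, was at 406 CPM in CHLA9 (403 to 409), where it ranked 313 among all genes. In TC71 it was at 141 CPM (138 to 144) with rank 1094, and the log2 difference was 1.52 (1.49 to 1.55), or 2.87-fold.

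The 3 IGF2BP genes went different ways between the lines. IGF2BP1 (ENSG00000159217, chr17:48997385-49056145, plus strand), the highest member, was at 742 CPM in CHLA9 (738 to 746; rank 173) against 219 CPM in TC71 (215 to 223; rank 686). Its log2 difference was 1.76 (1.74 to 1.79), or 3.39-fold. IGF2BP2 (ENSG00000073792, chr3:185643130-185825042, minus strand) went the other way, at 24.8 CPM in CHLA9 (24.1 to 25.6) against 111 CPM in TC71 (109 to 114). Its log2 difference was -2.17 (-2.22 to -2.11), or 4.49-fold. IGF2BP3 (ENSG00000136231, chr7:23310209-23470491, minus strand) was at 68.1 CPM (66.9 to 69.4) and 72.8 CPM (70.7 to 75.1), a log2 difference of -0.10 (-0.15 to -0.05). IGF2BP1 was thus the highest of the 3 in both lines, and IGF2BP2 was the lowest in CHLA9 and second in TC71. An antisense gene, IGF2BP2-AS1, had 6 UMIs in CHLA9 and 1 in TC71.

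In order of level, CHLA9 ran from IGF2BP1 through IGFBP2, IGF2BP3, IGF2R, IGF1R, INSR, IGF2BP2, IRS1 and IGF1 to IGF2, and no neighbors had overlapping intervals. TC71 ran from IGF2BP1 through IGFBP2, IGF2BP2, IGF2BP3, IGF2R, IGF1R, IGF1, IRS1 and INSR to IGF2. There the intervals of IRS1 (10.9 to 12.7) and INSR (9.54 to 11.2) overlapped. With 1 library a line, the spread between cultures behind these orders is unknown.

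To see how many cells held each transcript at 1 depth, each cell was thinned at random to 10000 UMIs, which left out 14 CHLA9 and 59 TC71 cells below that. Of the 4510 and 1670 thinned cells, 99.4% of CHLA9 and 85.9% of TC71 held an IGF2BP1 UMI (exact Clopper-Pearson intervals 99.2 to 99.6 and 84.1 to 87.5). IGFBP2 was detected in 97.4% (96.9 to 97.9) and 73.6% (71.4 to 75.7). IGF2BP2 was detected in 21.3% (20.1 to 22.5) of CHLA9 and 65.2% (62.9 to 67.5) of TC71 cells, and IGF2BP3 in 47.2% (45.7 to 48.6) and 51.6% (49.1 to 54.0). The receptors and the adaptor were each found in a minority of thinned cells. IGF1R was found in 29.4% (28.1 to 30.8) and 23.5% (21.5 to 25.6), IGF2R in 31.8% (30.4 to 33.2) and 27.9% (25.8 to 30.1), INSR in 22.5% (21.3 to 23.8) and 10.1% (8.71 to 11.7), and IRS1 in 12.9% (11.9 to 13.9) and 11.5% (10.0 to 13.1). IGF1 was found in 10.2% (9.29 to 11.1) and 19.1% (17.2 to 21.1).

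Without thinning the shares were higher, since deeper cells show more genes. IGF1R then reached 69.4% and 56.3% of kept cells, IGF2R 71.2% and 60.6%, INSR 57.8% and 28.1%, IRS1 36.1% and 30.4%, and IGF1 25.3% and 39.1%. IGF2BP1 reached 100% and 97.9%, IGFBP2 99.9% and 94.6%, IGF2BP2 54.0% and 92.1%, and IGF2BP3 84.4% and 84.1%. In thinned cells IGF2 was in 3 of 4510 CHLA9 cells (0.0665%) and in 0 of 1670 TC71 cells, which allows a share of up to 0.180% by the same limit of 3 counts. Each library held 1 line, so no other cell type gives a background share. PTPRC, which Ewing sarcoma cells should lack, was found in 0.0887% and 0.180% of thinned cells, and the other 9 members were far above that.

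**Figure D2:**
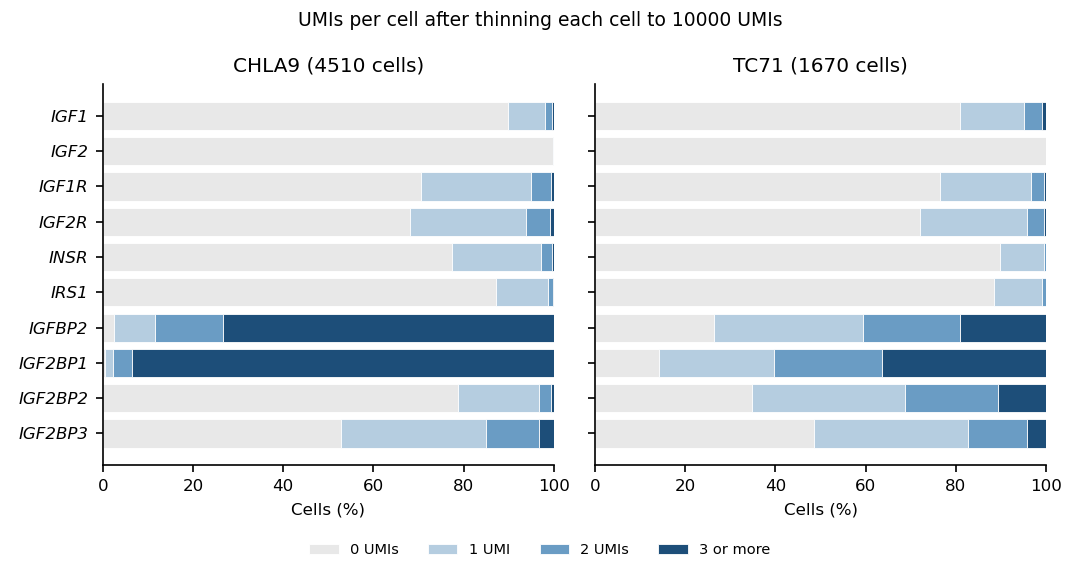
Share of thinned cells (%, 10000 UMIs each) with 0, 1, 2 and 3 or more UMIs of each gene, for 4510 CHLA9 and 1670 TC71 cells. IGF2BP1 and IGFBP2 have 3 or more UMIs in 93.6% and 73.3% of CHLA9 cells but in 36.5% and 19.1% of TC71 cells, and most cells have 0 UMIs of IGF1, IGF1R, IGF2R, INSR and IRS1.

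UMIs per cell differed widely between the members. A typical thinned CHLA9 cell held 7 IGF2BP1 UMIs (median; highest 28) and a typical TC71 cell 2 (highest 12). For IGFBP2 the medians were 4 and 1, with highest counts of 16 and 8. IGF2BP2 had a median of 0 in CHLA9 and 1 in TC71. For IGF1R, 24.4% of CHLA9 and 20.1% of TC71 cells held 1 UMI, and 4.52% and 2.93% held 2.

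Over all thinned cells, IGF1 was the member spread least evenly in both lines, by the measure given next. The dispersion, the variance of the UMIs minus their mean, divided by the mean squared, is 0 where cells differ by counting alone. For IGF1 it was 3.30 in CHLA9 and 1.27 in TC71, above the dispersion of 99.6% of 9988 and 98.1% of 9811 genes with a mean of 0.05 UMIs or more. The median over those genes was 0.0952 and 0.0934. In CHLA9, 8.23% of cells held 1 IGF1 UMI, 1.44% held 2, and 0.488% held 3 or more, up to 6. Within G1, S and G2M cells alone the IGF1 dispersion was 4.03, 2.43 and 3.52 in CHLA9 and 1.65, 0.98 and 1.19 in TC71, a look chosen after seeing the data. In TC71 the adaptor gene IRS1 was above IGF1 within G1 (1.86) and within S (1.31), and at -0.28 within G2M. Without the cells of the highest doublet scores, also chosen afterwards, the IGF1 dispersion was 3.44 and 1.21. The other 8 genes with enough UMIs lay between 0.0113 and 0.43 in CHLA9 and between -0.24 and 0.88 in TC71. IRS1 was next at 0.429 and 0.881, but its place in TC71 changed with the random draw: with another one, IRS1 there was at 0.21 and INSR at 0.49, against -0.24 for INSR at first. The IGF1 values with that draw were 3.48 and 1.25.

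Phases were assigned per library with the cell cycle scores of the study's methods, which placed 22.4% of CHLA9 cells in G1, 38.5% in S and 39.0% in G2M, and 13.1%, 48.2% and 38.7% of TC71 cells. These are ranges of a score, not cell types. With all genes kept for scoring, the phase was the same for 97.3% of CHLA9 and 79.8% of TC71, and G1 took 24.8% of TC71 cells. A gene counted as differing when G1 and G2M were at least 1.5-fold apart and one reached 5 CPM.

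IGF1 was lowest in G2M in both lines. In CHLA9 it was at 15.6 CPM in G1 (14.3 to 17.1), 15.6 CPM in S (14.6 to 16.5) but 9.60 CPM in G2M (8.92 to 10.3), the 1 member at least 1.5-fold higher in G1, against 2.34% of the 10178 genes tested. In TC71 IGF1 was at 28.5 CPM in G1 (24.5 to 32.9), 26.3 CPM in S (24.4 to 28.3) but 21.7 CPM in G2M (19.9 to 23.7), under 1.5-fold. In TC71, none of the members was 1.5-fold higher in G1, where 0.993% of 10074 genes were.

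IGF2BP3 was lowest in G1 and highest in G2M in both lines. It was at 53.2 CPM in G1 (50.7 to 55.8), 65.0 CPM in S (63.1 to 67.0) against 77.0 CPM in G2M (75.0 to 79.0) in CHLA9. In TC71 it was at 56.8 CPM (51.1 to 63.0), 62.4 (59.5 to 65.5) and 88.6 (84.9 to 92.4), the 1 member at least 1.5-fold higher in G2M there, as were 7.67% of genes. In CHLA9 none passed in that direction, where 5.77% of genes did. The log2 ratio of G1 over G2M for IGF2BP3 was -0.53 (-0.61 to -0.45) in CHLA9 and -0.64 (-0.81 to -0.48) in TC71.

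INSR was highest in S in both lines. In CHLA9 it was at 37.2 CPM in S (35.7 to 38.7), against 23.8 CPM in G1 (22.1 to 25.5) and 19.6 CPM in G2M (18.6 to 20.6). It was the 1 member at least 1.5-fold higher in S than in both other phases, as were 1.68% of 10268 genes, a rule added after these values were seen. In TC71 INSR was at 12.3 CPM in S (11.1 to 13.7), against 8.92 CPM in G1 (6.76 to 11.6) and 8.51 CPM in G2M (7.39 to 9.74). No member passed the S rule in TC71, where 0.523% of 10137 genes did. The log2 ratio of S over G2M was 0.92 (0.83 to 1.02) in CHLA9 and 0.54 (0.28 to 0.79) in TC71.

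**Figure D3:**
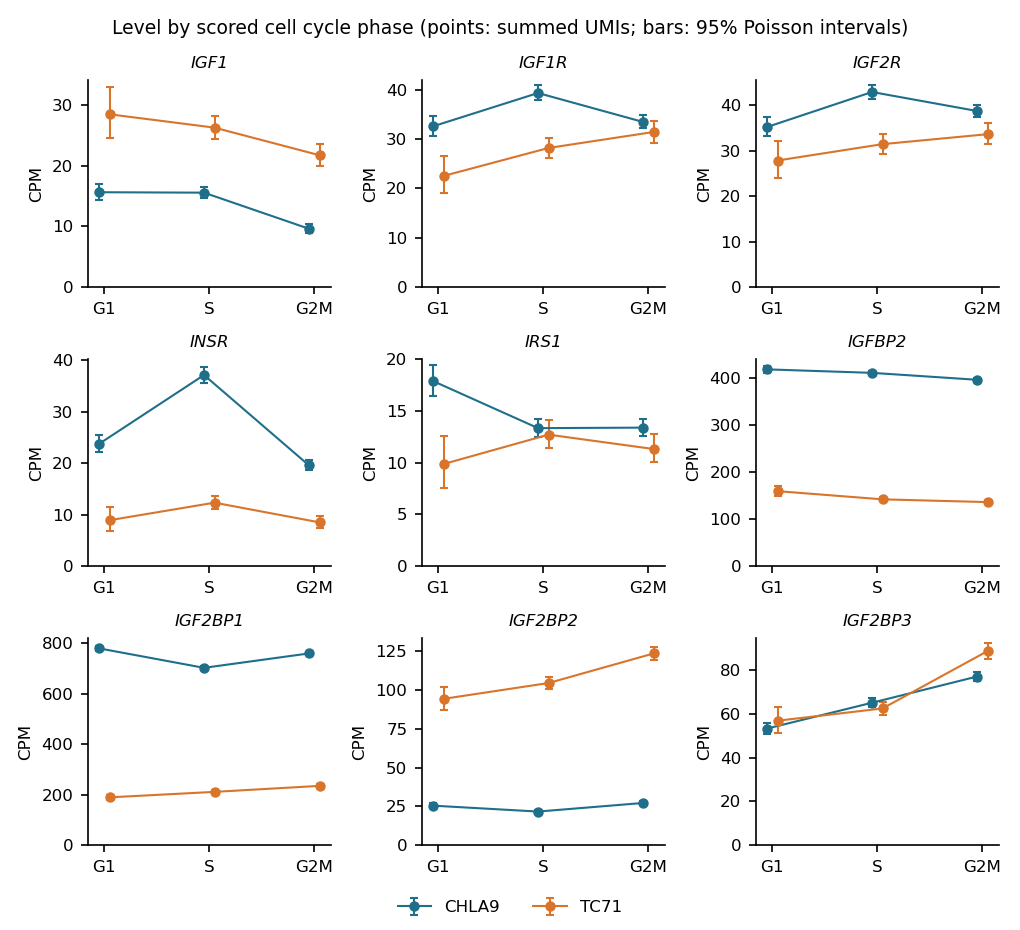
CPM (linear axes from 0) of the 9 genes other than IGF2 in cells scored as G1, S and G2M, with exact 95% Poisson intervals as bars, for CHLA9 and TC71. IGF1 is lowest in G2M, IGF2BP3 highest in G2M and INSR highest in S in both lines, while IGFBP2 stays between 396 and 418 CPM in CHLA9.

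The other members passed no phase rule in either line. In TC71, though, IGF1R differed more between G1 and G2M than IGF1 did, with log2 ratios of -0.48 and 0.39. IGFBP2 was at 418 CPM in G1, 411 in S and 396 in G2M of CHLA9, and at 159, 142 and 136 in TC71. IGF1R was highest in S in CHLA9, at 39.4 CPM against 32.6 in G1 and 33.5 in G2M, and highest in G2M in TC71, at 31.5 against 22.5 in G1 and 28.2 in S. IGF2BP1 was lowest in S in CHLA9 (702 CPM; 780 in G1 and 760 in G2M) and lowest in G1 in TC71 (189 CPM; 211 in S and 235 in G2M). IGF2BP2 was at 25.5, 21.7 and 27.2 CPM in G1, S and G2M of CHLA9 and at 94.4, 105 and 124 in TC71. IGF2R was at 35.2, 42.9 and 38.8 CPM in CHLA9 and at 27.9, 31.5 and 33.7 in TC71. IRS1 was at 17.9, 13.3 and 13.4 CPM and at 9.86, 12.7 and 11.3. None of these reached 1.5-fold between G1 and G2M.

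Next, the wider pathway was taken from 58 genes in 9 lists, of which 57 were in the files and 40 reached 5 CPM in a line. Among the 40, 7 were at least 2-fold higher in CHLA9 and 4 in TC71, members included, and 29 were under 2-fold. These counts are 17.5% and 10.0% of the 40, beside 17.5% and 10.5% of all genes tested, so the wider lists differed about as often as other genes. Without the 10 members, 31 genes reached 5 CPM, with 4 higher in CHLA9 and 3 in TC71, and their median log2 difference was 0.13.

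Outside the cell, IGFBP4 and STC2 passed 2-fold. IGFBP4, which holds IGFs until PAPPA cleaves it, was at 83.2 CPM in CHLA9 (81.8 to 84.6) against 4.56 CPM in TC71 (4.03 to 5.14), for a log2 difference of 4.19 (4.01 to 4.37). STC2, an inhibitor of PAPPA, was at 25.6 CPM (24.8 to 26.3) and 4.34 CPM (3.82 to 4.90), a log2 difference of 2.56. PAPPA itself was at 52.5 and 47.8 CPM and IGFBP5 at 14.0 and 13.4 CPM. IGFBP3, a target that EWSR1-FLI1 is known to repress, was singled out after its values were seen. It had 99 UMIs in CHLA9, or 0.566 CPM, and 0 in TC71, and so did not reach 5 CPM. Among genes of these lists also under 5 CPM, IGFBP7 (0.0572 and 1.65 CPM) and STC1 (0.749 and 3.84 CPM) were higher in TC71. Of 9 binding protein genes, 3 reached 5 CPM.

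Inside the cell most genes were under 2-fold apart. Of 9 adaptor genes 7 reached 5 CPM, and the adaptor GAB1 alone passed 2-fold, at 9.59 CPM in CHLA9 (9.14 to 10.1) against 3.98 CPM in TC71 (3.48 to 4.52). Of 18 genes from PI3K to mTOR 16 reached 5 CPM, and 14 of these were under 2-fold. The regulatory subunit PIK3R3 was at 27.8 CPM (27.0 to 28.6) and 9.17 CPM (8.41 to 9.98). The catalytic subunit PIK3CB was higher in TC71, at 6.56 CPM (6.19 to 6.95) against 16.6 CPM (15.6 to 17.7). The 2 FOXO genes that reached 5 CPM were under 2-fold.

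The let-7 partners whose sites were given above held the widest difference among the 40. LIN28B was at 14.1 CPM in CHLA9 (13.6 to 14.7) against 54.2 CPM in TC71 (52.3 to 56.1), for a log2 difference of -1.94 (-2.02 to -1.86). HMGA2, a chromatin protein of embryonic cells, had 12 UMIs in CHLA9 and 4448 in TC71, or 0.0686 CPM (0.0354 to 0.120) and 76.2 CPM (74.0 to 78.5). HMGA2 was found in 0.0887% of thinned CHLA9 cells and 51.8% of thinned TC71 cells, and its log2 difference was -10.12 (-11.07 to -9.31). The 3 genes of this list that were higher in TC71 were thus IGF2BP2, LIN28B and HMGA2, with 1 match to the let-7 seed in IGF2BP2 and 4 in each of the others. IGF2BP1, with 4 matches as well, was higher in CHLA9. The remaining genes of the list that reached 5 CPM, IGF2BP3 and HMGA1, were under 2-fold. HMGA1, whose matches were not listed, was at 317 CPM in CHLA9 and 290 CPM in TC71. LIN28A did not reach 5 CPM.

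**Figure D4:**
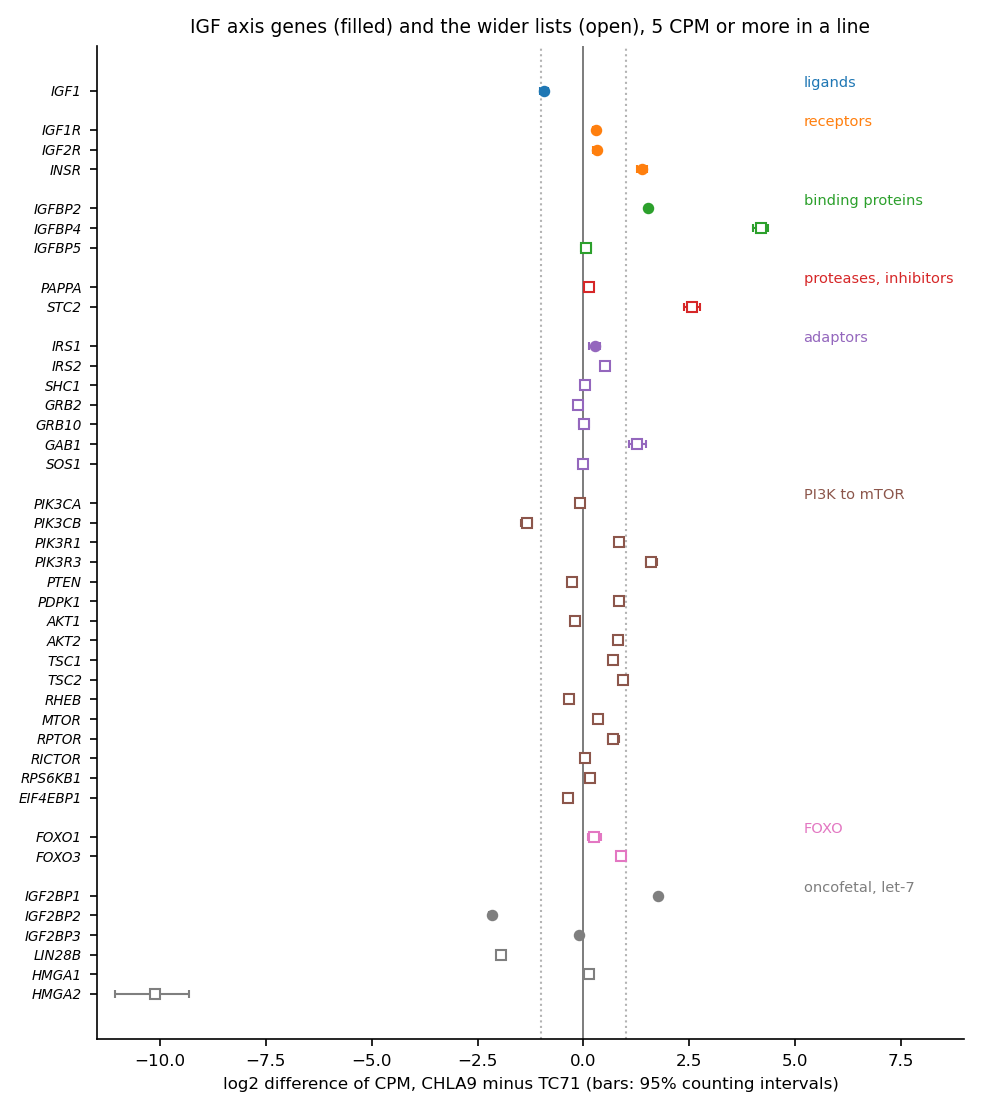
The log2 difference of CPM, CHLA9 minus TC71, of the 40 genes of the wider lists that reached 5 CPM in a line, grouped by list, with 95% counting intervals as bars and dotted lines at 2-fold; filled circles are IGF axis genes and open squares the others. IGFBP4 at 4.19 and HMGA2 at -10.12 lie farthest from 0.

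To see whether the members moved together between cells, Spearman's rho was taken for the 36 pairs of the 9 members other than IGF2, over the thinned cells of 1 library. It is a description of that library with no p-value, since cells share their source. In CHLA9 rho ran from -0.0457 (IGF1 and IGF2BP1) to 0.0524 (IGF1R and INSR) with a median of 0.00183, and 20 of 36 pairs were above 0. In TC71 it ran from -0.0431 (IGF1R and IGF2R) to 0.113 (IGF2R and IGF2BP1) with a median of 0.0262, and 28 pairs were above 0. No CHLA9 pair and 1 TC71 pair exceeded 0.1, and 18 pairs had the same sign in both lines. With another random draw of the thinning, IGF1R and INSR stood at 0.0263 in CHLA9, and IGF2R and IGF2BP1 at 0.0472 in TC71. All of these correlations are weak, also that of IGFBP2 and IGF2BP1 in CHLA9 (0.00542), whose median counts were 4 and 7 UMIs a cell, and none is read as a finding.

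**Figure D5:**
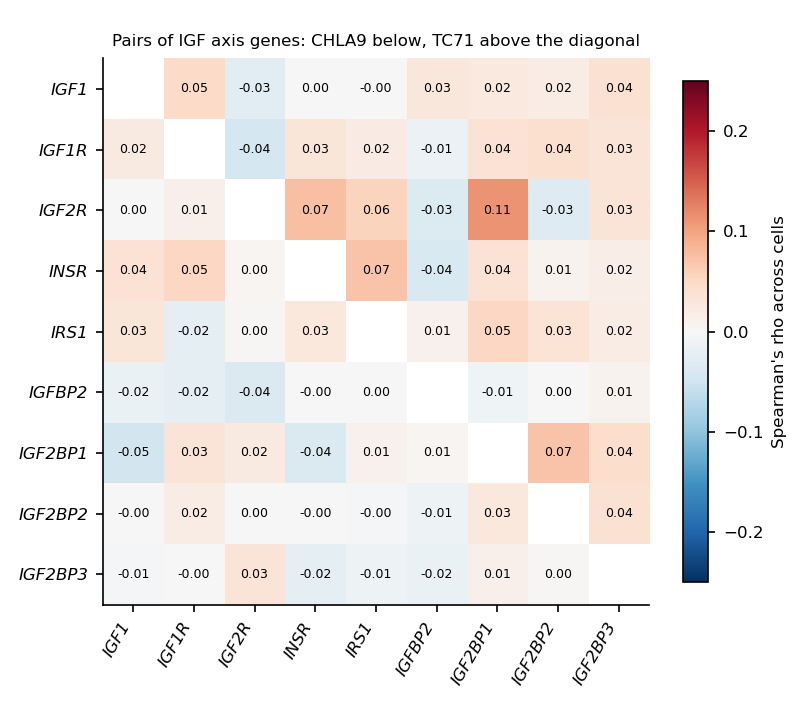
Spearman's rho across thinned cells for the 36 pairs of the 9 genes other than IGF2, with the 4510 CHLA9 cells below the diagonal and the 1670 TC71 cells above it. The values lie between -0.0457 and 0.0524 in CHLA9 and between -0.0431 and 0.113 in TC71.

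The members were then set beside the 8963 genes, other members included, that were detected in at least 5% of thinned cells of both lines. Genes were ranked by the mean of rho over the lines. Those named here and in the next paragraph are the ends of that ranking from 1 random draw of the thinning. Picking the ends of so many genes makes values larger, and another draw was not checked. IGF2BP1 was most like HNRNPU, a nuclear RNA-binding protein (0.197 in CHLA9 and 0.180 in TC71), then HNRNPA2B1 (0.158 and 0.150) and the mitochondrial gene MT-ND6 (0.0857 and 0.215). It was least like the ribosomal protein gene RPS3 (-0.145 and -0.228). IGF2BP3 was most like the nuclear RNA MALAT1 (0.150 and 0.173), CENPF, a kinetochore protein of G2 and mitosis (0.117 and 0.145), and TTK, a mitotic kinase (0.103 and 0.154). IGF2BP2 was nearest to the mitotic genes CENPF (0.0493 and 0.125), TPX2 (0.0328 and 0.135) and ASPM (0.0508 and 0.104), all weaker in CHLA9, where its level was low. CENPF, TTK and TPX2 are in the gene lists used to score the phases, so these values are not separate from the phase levels above.

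IGFBP2 stood apart from the IGF2BPs in this ranking, with GAPDH (0.0775 and 0.134) and the ribosomal protein genes RPL11 (0.0541 and 0.137) and RPL3 (0.0724 and 0.118) at its head. IGF1R was nearest to the histone gene HIST2H2AC (0.0582 and 0.103), NEAT1 (0.0387 and 0.119) and MALAT1 (0.0443 and 0.114). IGF2R was nearest to HNRNPU (0.0650 and 0.129), MT-ND6 (0.0672 and 0.0985) and PRKDC (0.0444 and 0.110). INSR, IRS1 and IGF1 did not reach 20 CPM in both lines, as the ranking asked, and INSR is described after its values were seen. It was nearest to the replication genes MCM3 (0.121 and 0.0732) and MCM4 (0.113 and 0.0666) and farthest from the mitotic cyclin CCNB1 (-0.136 and -0.0883). MCM4 is also in the gene lists used to score the phases.

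Measures of the whole cell moved with several of these values. The share of a thinned cell's UMIs in ribosomal protein genes had a rho of -0.197 with IGF2BP1 in CHLA9 and -0.268 in TC71. With IGF2BP3 it was -0.0920 and -0.207, with IGF2BP2 -0.0571 and -0.152, and with IGFBP2 0.0883 and 0.120. That share itself had a rho with MALAT1 of -0.303 in CHLA9 and -0.490 in TC71, and with the mitochondrial percent of 0.119 and -0.285. IGF1 and INSR had rho values of 0.0565 and 0.0689 with it in CHLA9 and 0.0375 and -0.0127 in TC71. The part of the nuclear RNA, ribosomal and mitochondrial shares in the gene rankings was not tested.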

How the data were processed

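Single cell transcriptomes of CHLA9 and TC71, made with a 10x Genomics 3' kit, were analysed. With Cell Ranger 3.1.0 and its built-in hg38 reference the authors made UMI counts for 33538 genes in each barcode, and these raw counts are what was deposited. The release of the gene annotation is not given in the sources used here.

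The members and lists were chosen with earlier results of these data known. Text names all 10 members; of the wider lists, genes 2-fold apart that reached 5 CPM, with INS, LIN28B, H19 and IRS2 whatever their values; and, for each member at 20 CPM or more in both lines, the 3 genes with the highest mean rho. Names outside that rule are marked as such or are members of a described list given for context.

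Filters removed barcodes under 5000 UMIs (277 in CHLA9, 5869 in TC71), then under 2000 genes (95, 269), then over 15% mitochondrial UMIs (181, 601). A total of 16 barcode sequences occurred in both libraries. Scrublet, run through scanpy 1.11.5, called 350 CHLA9 cells (7.74%) and 12 TC71 cells (0.694%) as doublets. These were kept, and an alternative left out the top 8% of scores. Cells were thinned with numpy 2.4.6 and seed 1. Phases came from Seurat 5.3.0 in R 4.3.3 on genes found in at least 10 cells, per library. Intervals are at 95% with scipy 1.17.1 (exact Poisson, Clopper-Pearson) and cover counting error only. Tables were handled with pandas 2.3.3 in Python 3.11.15. Coordinates, exon overlaps and 3' UTRs were read from GENCODE 44 (GRCh38) by gene identifier, and the printed sites were checked against the genome; the miRNA sequence is from RefSeq.

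Having 1 library a line, the comparison had no test. On simulated data with the CHLA9 profile, 100% of 200 planted 4-fold changes among 10000 genes passed 2-fold and 0 unchanged genes did, and 95.1% of intervals held the planted value. Those counts were drawn as Poisson, which the intervals assume, so that share follows from the design. A planted pair gave a rho of 0.852 after thinning and an unplanted one 0.00518 over 33538 genes. The planted genes had higher levels than the members. What rho a linked pair of low genes would give was not tested. Alternatives covered the cell filters, doublets, depth, thinning, cells used, scaling, fold and phase scoring.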

Additional observations from a re-analysis of the deposited data

Results flagged for a closer look

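For 3 members the change between phases had opposite directions in the lines, with counting intervals that left out 0 in both. Each line is 1 library, so that contrast was not tested. The counting intervals do not cover the spread between cells. For IGF2BP1 in CHLA9 the variance of the thinned UMIs was 1.82 times their mean, so intervals that allowed for it would be wider. Whether those would leave out 0 was not tested. IGF1R had a log2 ratio of S over G2M of 0.23 in CHLA9 (0.233) and -0.16 in TC71 (-0.157, interval -0.303 to -0.0113). The TC71 value depended on the phase scoring. With all genes kept, IGF1R there was at 29.9 CPM in S and 30.6 CPM in G2M, and with both libraries scored together at 29.3 and 30.6. The phases stayed further apart with an updated phase gene list (27.8 and 31.4) and with another seed of the control genes (27.8 and 31.6). IGF2BP1 had a log2 ratio of G1 over G2M of 0.0375 in CHLA9 and -0.310 in TC71, and a log2 ratio of S over G1 of -0.150 and 0.156. IGF2BP2 had a log2 ratio of S over G1 of -0.233 in CHLA9 and 0.148 in TC71. All of these were under 1.5-fold.

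The barcodes under 5000 UMIs, which the filter left out, held UMIs of the members as well. Summed over the 10 genes, they were at 911 CPM (842.9 to 983.6) in 277 CHLA9 barcodes, against 1370 CPM in the kept cells, and at 554 CPM (539 to 570) in 5869 TC71 barcodes, against 652 CPM. IGF2BP1 was at 599 CPM in those CHLA9 barcodes and 165 CPM in those of TC71, and IGFBP2 at 133 and 152 CPM. Whether these barcodes are small cells, damaged cells or free RNA was not tested.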

How the results depend on the processing

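INSR, IGFBP2 and IGF2BP1 were the 3 members at least 2-fold higher in CHLA9 under all 9 alternatives. The 1 member higher in TC71 became 2, with IGF1 added to IGF2BP2, in G2M cells only, without mitochondrial and ribosomal protein genes, and at 1.5-fold; in the other 6 alternatives it was IGF2BP2 alone. The highest rho among pairs in TC71 went from 0.113 to 0.218 (IGF2BP1 and IGF2BP3) with no thinning and UMIs scaled to 10000 a cell. In that setting IGF2R and IGF2BP1, the highest pair at first, stood at 0.208. The reason for the rise was not tested. Of 72 other log2 differences between the lines none changed sign, 18 left the counting interval, and the largest shift was 0.252. Of 72 log2 ratios of G1 over G2M none left its interval, and 4 of them, each of a member under 1.5-fold, changed sign. Of 120 shares of cells, 40 left their interval, 18 with cells thinned to 5000 UMIs and 19 with no thinning. Of alternatives chosen after seeing the data, the 10 dispersion values of IGF1 stayed within 1.5 times, while 5 of 10 for IRS1 and 7 of 10 for INSR moved further. No paired analysis was possible because the lines have 1 library each, with no test to block. Depth limits the low genes, since 3 UMIs are 0.0171 CPM for CHLA9 and 0.0514 CPM for TC71, and the spread between cultures could not be measured.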
